A study of Mus musculus with 2 samples.

Results

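The genes described are 44 genes of skeletal muscle outside the myosin chains and troponins: those of the sarcomere, of calcium handling, of muscle energy supply, the myogenic transcription factors and subunits of the muscle acetylcholine receptor. They were chosen by gene symbol, and all 44 were found, on 86 of the 45101 probe sets of the arrays and among 18193 named genes. The choice was made with earlier results of these arrays known, and the values below are therefore descriptions with no test.

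RNA of the whole head of newborn mice was hybridised to 2 Affymetrix arrays, 1 per genotype. All animals were offspring of carriers of the T(2:9)11H translocation, which exchanges the distal parts of Chr 2 and Chr 9. MatDp(dist2) carries 2 maternal copies of distal Chr 2 together with 2 paternal copies of distal Chr 9, and PatDp(dist2) the reverse. The labels name no treatment, no wild-type head was analysed here, and the labels do not say how many animals a sample held or whether they were littermates. With 1 array per genotype there is no spread between animals or arrays, so none of the differences below can be set against replicate error.

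A striated muscle fibre contracts when an action potential in the membrane opens calcium release from the sarcoplasmic reticulum and calcium lets myosin pull on the actin filaments. The filaments are anchored in the Z-disc and the M-band, and pumps return the calcium to the store. Around birth, muscle passes from embryonic and neonatal isoforms to adult ones, builds up its oxidative and glycolytic enzymes, and exchanges the embryonic gamma subunit of the acetylcholine receptor for the epsilon subunit at the synapse. The muscles of a head include those of chewing, of the face, of the tongue and of the eye.

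Nearly all of these genes had the higher signal in PatDp(dist2). The signal is the MAS5 intensity the authors deposited, on a linear scale, and a gene is represented by its brightest probe set. The floor for a measured signal was 187, the median of the 2 arrays' median signals. Of the 44 genes 43 lay above it on both arrays, and only Chrne was below it on both. Of these 43, 42 were higher in PatDp(dist2) and 1, Tpm3, was higher in MatDp(dist2) by 1.01-fold. By at least 1.5-fold 33 of them were higher in PatDp(dist2), and 18 by at least 2-fold, while 0 were higher in MatDp(dist2) by 1.5-fold or more. Over all 12483 genes measured on at least 1 array, the shares were 48.0% with the higher signal in PatDp(dist2), 10.8% higher there by at least 1.5-fold, 3.47% by at least 2-fold, and 12.0% higher in MatDp(dist2) by at least 1.5-fold. Since the genes were chosen with this contrast known, nothing is read from these shares. The median log2 ratio of PatDp(dist2) over MatDp(dist2) was 0.84, a 1.79-fold difference, and the ratios ran from -0.01 to 3.74.

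The median log2 ratio over all measured genes was -0.02. Bright genes leaned toward PatDp(dist2). Of 2016 genes with a mean log2 signal of at least 11, 68.1% were higher there, 17.7% at least 1.5-fold and 6.15% at least 2-fold. Of the muscle genes, 16 had a mean log2 signal of 12 to 13, where the median of all 516 genes was 0.23 and that of the muscle genes 1.04. A further 10 lay at 13 or above, where the medians were 0.18 for 243 genes and 0.66 for the muscle genes.

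**Figure D1:**
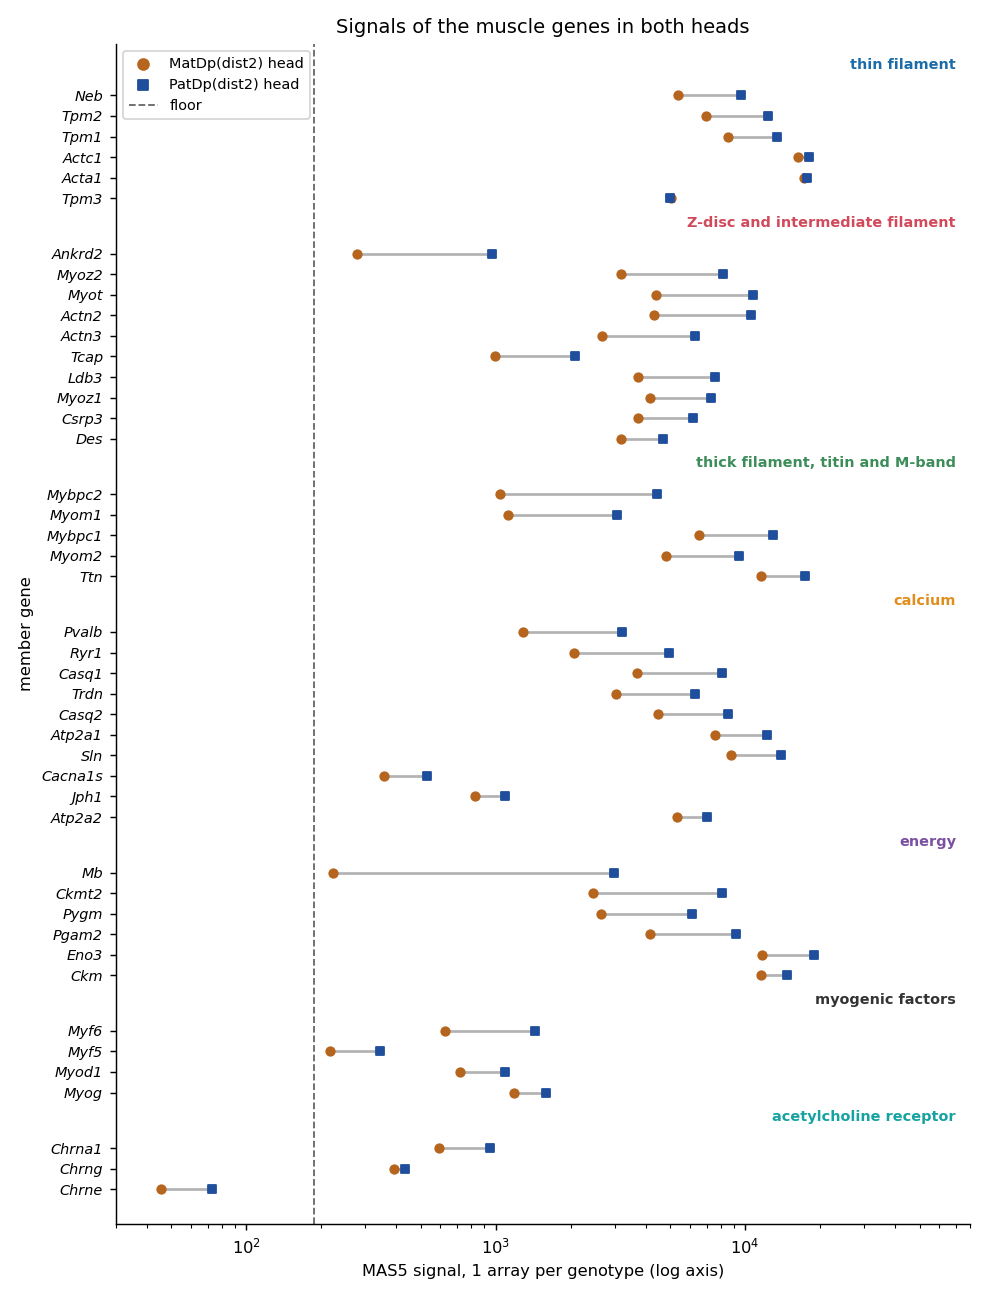
Deposited MAS5 signals (log axis) of the 44 muscle genes in MatDp(dist2) (circles) and the PatDp(dist2) head (squares), 1 array each, by role, with the floor of 187 as a dashed line. Mb has the widest gap, from 224 to 2983, Acta1, Actc1 and Tpm3 have nearly coinciding points, and Chrne lies below the floor in both heads.

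**Figure D2:**
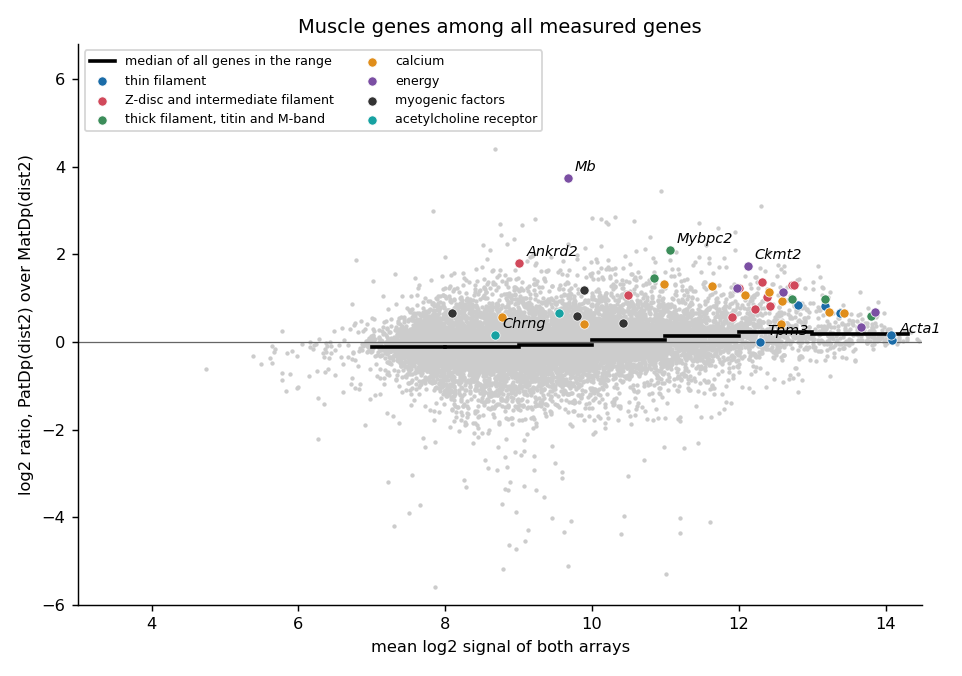
Log2 ratio of PatDp(dist2) over MatDp(dist2) against the mean log2 signal of both arrays, for 12483 measured genes (grey, signals below the floor set to it) and the muscle genes (coloured by role); black bars are the medians of all genes within each range of brightness. Most muscle genes lie above the bars, and those at the bright end lie nearer to them.

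The arrays also differed in genes of other tissues. In bulk RNA, fewer cells of a type and less RNA per cell cannot be told apart. Neuron markers were lower in PatDp(dist2), all 7 of 7 by at least 1.5-fold, and their summed signal was 28148 in MatDp(dist2) against 12349 in PatDp(dist2). Epidermis markers were lower there too, 7 of 7 by at least 1.5-fold, with sums of 45295 and 6256.3. Their folds were unlike: Krt5 and Krt14 were lower by 1.58-fold and 1.56-fold, and Krt1, Krt10 and Lor by 16.2-fold, 17.2-fold and 20.5-fold. All 7 lens markers were under the floor of 187 in PatDp(dist2), with sums of 31337 and 353.9, although the label of both samples is whole head. Of 6 measured cartilage markers 3 were at least 1.5-fold lower, with sums of 4593 and 2355.1. Brown fat markers mostly went the other way, with 4 of 7 at least 2-fold higher in PatDp(dist2) and sums of 11668 and 33878. Of the 7, Prdm16 was lower there (583 and 446). Cox7a1, among the 4, is also on the list of other muscle energy genes below. The part of these tissue differences in the muscle ratios was not tested.

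Heart muscle markers were low in both heads. The heart genes Nppa, Myh6, Tnni3 and Myl7 lay below the floor on both arrays, and the other heart markers, Nppb, Nkx2-5 and Tbx5, reached at most 301. Of 8 smooth muscle markers 6 were measured, all with the higher signal in PatDp(dist2), 1 of them, Synpo2, by over 1.5-fold, at a median log2 ratio of 0.46 and sums of 12711 and 17748. Acta2, smooth muscle actin, gave 8111 in MatDp(dist2) and 10405 in PatDp(dist2). The smooth muscle genes Cnn1 and Lmod1 were below the floor on both arrays.

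Promoter sequences are given for 9 members, because the myogenic factors bind E-boxes (CANNTG) and work with MEF2 and serum response factor at muscle genes. The 9 were not picked by rank of ratio: Mybpc2 (log2 ratio 2.09) and Tpm3 (-0.01), which have promoters too, are not printed. Each printed stretch holds a match, which not every member promoter does. The sequences are RefSeq's for GRCm38.p6, which held 38 promoters for 32 of the 44 genes, each from 250 bases before to 50 after an annotated start. Only bases before the start are printed, 5′ to 3′ on the gene's strand, and capitals mark E-boxes, TATAAA, MEF2 sites and CArG boxes (the site of serum response factor). Each stretch was cut to the 60 to 160 bases next to the start, so matches further upstream are not shown. Acta1 thus has E-boxes at -238 and -221, outside its 80 printed bases. Ckmt2 (-248 and -189) and Pgam2 (-245 and -207) have further E-boxes outside theirs. Mb, Ckmt2, Pgam2, Myoz2 and Ankrd2 were more than 2-fold apart between the heads. Chrna1, Chrng, Acta1 and Actc1 were less than 2-fold apart.
Mb, chr15:77022788-77022927, minus strand, the second of 3 annotated starts counted from upstream: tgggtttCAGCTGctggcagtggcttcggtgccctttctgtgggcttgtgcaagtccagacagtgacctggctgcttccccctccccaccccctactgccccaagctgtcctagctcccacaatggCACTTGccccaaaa
Ckmt2, chr13:91876886-91877045, minus strand: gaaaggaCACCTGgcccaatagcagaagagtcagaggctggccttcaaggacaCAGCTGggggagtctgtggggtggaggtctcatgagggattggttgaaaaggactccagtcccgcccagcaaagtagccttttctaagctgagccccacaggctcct
Pgam2, chr11:5803797-5803936, minus strand: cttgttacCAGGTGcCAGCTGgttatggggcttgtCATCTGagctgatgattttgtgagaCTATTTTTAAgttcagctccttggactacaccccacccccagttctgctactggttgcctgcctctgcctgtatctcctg
Myoz2, chr3:123034988-123035047, minus strand: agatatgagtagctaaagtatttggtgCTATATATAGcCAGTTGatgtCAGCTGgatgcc
Ankrd2, chr19:42035882-42036026, plus strand: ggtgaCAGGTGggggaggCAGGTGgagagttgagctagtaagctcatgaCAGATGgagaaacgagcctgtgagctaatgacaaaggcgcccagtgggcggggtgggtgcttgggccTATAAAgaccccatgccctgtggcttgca
Chrna1, chr2:73580339-73580438, minus strand: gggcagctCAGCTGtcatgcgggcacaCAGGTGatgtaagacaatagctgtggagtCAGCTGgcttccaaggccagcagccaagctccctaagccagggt
Chrng, chr1:87205651-87205810, plus strand: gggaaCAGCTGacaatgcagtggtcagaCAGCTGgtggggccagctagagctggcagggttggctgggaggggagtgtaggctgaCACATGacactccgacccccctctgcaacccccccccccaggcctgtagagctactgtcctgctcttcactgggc
Acta1, chr8:123894776-123894855, minus strand: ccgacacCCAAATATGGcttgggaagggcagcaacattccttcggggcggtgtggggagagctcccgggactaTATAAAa
Actc1, chr2:114052876-114052935, minus strand: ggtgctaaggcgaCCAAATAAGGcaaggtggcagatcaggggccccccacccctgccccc

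The E-box CANNTG was found, on either strand, in 33 of the 38 member promoters (86.8%) and in 72.3% of all 32851 promoters of that length. Its form CAGCTG was in 19 (50%) and 16.3%, and the form CACCTG in 8 (21.1%) and 20.2%; both are counted within CANNTG too. A MEF2 site was in 5 (13.2%) and 3.19%, a CArG box in 5 (13.2%) and 1.63%, and TATAAA in 4 (10.5%) and 13.6%. Some promoters of a gene overlap, as those of Ldb3 do, and share a match. The 17 measured genes with a CAGCTG match had a median log2 ratio of 0.69, and the 14 without had 0.98. For CACCTG the order was the other way, with 1.13 in 8 genes and 0.69 in the 23 without. For any CANNTG the medians were 0.78 in 28 genes and 1.02 in the 3 without. For the CArG box they were 0.58 in 4 and 0.82 in 27, and for TATAAA 0.4 in 4 and 0.94 in 27. The MEF2 site was found upstream of Casq2, Myoz2, Pgam2, Pvalb and Ttn, whose median was 1.14 against 0.72 in the 26 without. These matches describe letters in the window and not binding.

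The thin filament genes had a low median ratio, next to that of the acetylcholine receptor (0.41). Of 6 measured genes 3 were at least 1.5-fold higher in PatDp(dist2) and 0 at least 2-fold, and the median log2 ratio was 0.40. Acta1, the adult skeletal muscle actin, gave 17284 in MatDp(dist2) and 17717 in PatDp(dist2). Actc1, the cardiac actin that embryonic skeletal muscle also makes, had 16278 and 18071. Both actins, whose CArG boxes are printed above, were thus within 1.11-fold, and they were the 2 brightest of the muscle genes, on arrays whose highest signals were 22236 and 22894.5. Their direction was not stable: Acta1 turned to -0.16 and Actc1 to -0.05 after a loess fit on brightness, and Acta1 to -0.11 after quantile normalization.

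Tropomyosins lie along actin and carry the troponin complex. Tpm1 had signals of 8505.5 and 13402, and Tpm2 had 6996.5 and 12316. Both were higher in PatDp(dist2), by 1.58-fold and 1.76-fold. Neb, the giant ruler of the thin filament, had 5371.5 and 9606, a 1.79-fold difference. The brightest probe sets of these genes thus had larger ratios than the actins. Of the other 3 measured probe sets of Tpm1, 1456623_at (0.05) and 1423721_at (0.23) had log2 ratios near those of the actins (0.04 and 0.15). The third, 1447713_at, had 1.23, above the 0.66 of the brightest.

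Tpm3, which encodes a slow muscle tropomyosin as well as tropomyosins of other cells, had probe sets that differed widely. Its brightest, 1427260_a_at, gave 5031 in MatDp(dist2) and 4979.7 in PatDp(dist2). Probe sets 1436958_x_at, with 2425 and 1999.9, and 1427567_a_at, with 513 and 384.5, were lower in PatDp(dist2). Probe sets 1449996_a_at, with 204 and 983, and 1449997_at, with 489 and 1392, were higher there, by 4.82-fold and 2.85-fold. The mean over the 5 probe sets was 0.61 on the log2 scale, against -0.01 for the brightest. The transcripts of Tpm3 that each of them detects were not resolved here.

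Z-disc genes were higher in PatDp(dist2) throughout. All 10 genes of the Z-disc and the intermediate filament had the higher signal there, 9 at least 1.5-fold and 7 at least 2-fold, at a median log2 ratio of 1.15. Actn2, an actinin that crosslinks actin in all fibres and in heart, gave 4330.1 in MatDp(dist2) and 10565 in PatDp(dist2). Actn3, the actinin of fast fibres, had 2669.8 and 6305. The ratios of the actinins were 2.44-fold and 2.36-fold.

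Myot, the actinin-binding myotilin, had signals of 4399.9 and 10776, and Ldb3, an actinin-binding scaffold, had 3729 and 7583. Myoz2, a calcineurin-binding Z-disc protein of slow fibres and heart, had 3168 and 8145, and its relative of fast fibres, Myoz1, had 4152.5 and 7303. The ratio of Myoz1 was smaller than that of Myoz2 by a log2 of -0.55. Tcap, the titin cap, had 992 and 2081. Just past 2-fold among all 43 genes were Ldb3 (2.03-fold) and Trdn (2.08-fold), and just short of it Mybpc1 (1.99-fold) and Myom2 (1.97-fold).

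Ankrd2, an ankyrin repeat protein that responds to stretch, had the largest ratio of this group. Its signals were 277 in MatDp(dist2) and 964 in PatDp(dist2), 3.48-fold apart. Csrp3, the muscle LIM protein, had 3703 and 6169, and Des, the desmin of the intermediate filament, had 3166 and 4681, the smallest ratio of the group at 1.48-fold. The dimmer Des probe set was measured in MatDp(dist2) only, with 209.8.

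The genes that bind or order the thick filament were all higher in PatDp(dist2) by at least 1.5-fold, 5 of 5, at a median log2 ratio of 0.99. Mybpc2, the fast myosin-binding protein C, gave 1038 in MatDp(dist2) and 4414 in PatDp(dist2), 4.25-fold apart and the second-largest ratio of the 43 genes. Mybpc1, its slow counterpart, had 6526 and 12964. On the log2 scale the fast form exceeded the slow one in ratio by 1.10.

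The M-band proteins Myom1 and Myom2 crosslink myosin filaments. Myom1 had signals of 1116 and 3058, a 2.74-fold difference, and Myom2 had 4799 and 9439. The other 2 measured probe sets of Myom2 gave log2 ratios of 0.58 and 1.64, around that of 0.98. Ttn, the titin spring that spans from Z-disc to M-band, had 11603 and 17429, and its 5 measured probe sets gave log2 ratios from 0.59 to 1.42.

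**Figure D3:**
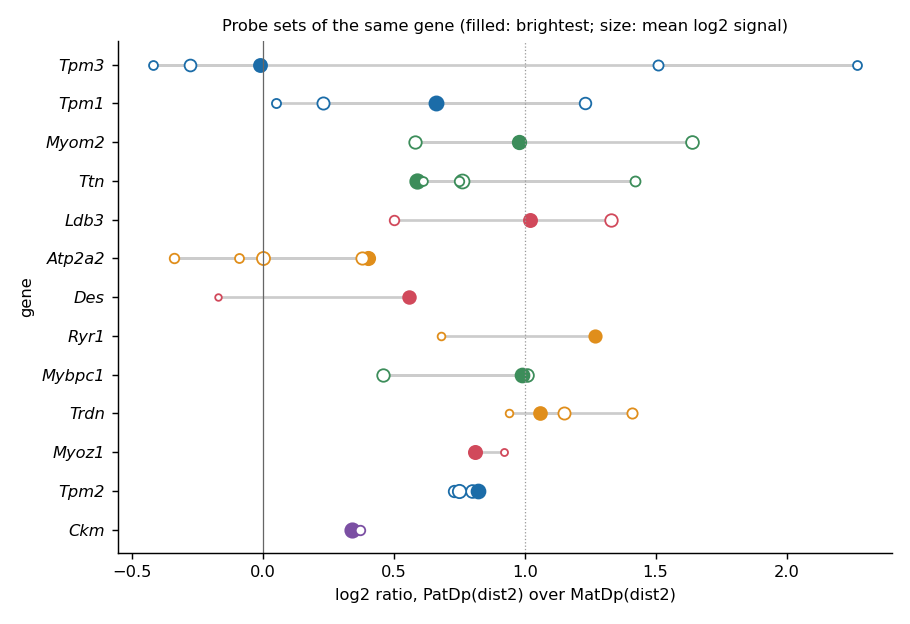
Log2 ratio of PatDp(dist2) over MatDp(dist2) for each measured probe set of the 13 muscle genes with several, filled where it is the brightest and sized by mean log2 signal; the dotted line is a 2-fold difference. Tpm3 spans from -0.42 to 2.27, while the probe sets of Tpm2 and Ckm nearly coincide.

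Of the 86 probe sets 74 were measured, and 67 of these were higher in PatDp(dist2) and 7 in MatDp(dist2). At least 2-fold higher in PatDp(dist2) were 27, against a background of 2.95% of the 20764 measured probe sets with 1 gene symbol. The probe sets of a gene spanned more than 1 log2 unit in 3 of 13 genes, Tpm3, Tpm1 and Myom2. In 0 of the 13 did probe sets lie at least 1.5-fold apart between the heads in opposite directions.

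Calcium genes were higher in PatDp(dist2), all 10 of 10, with 7 at least 1.5-fold, 4 at least 2-fold and a median log2 ratio of 0.82. The voltage sensor and the release channel come first in this chain. Cacna1s, the sensor of the transverse tubule, gave 358 in MatDp(dist2) and 529.6 in PatDp(dist2). Ryr1, the release channel of the sarcoplasmic reticulum, had 2059 and 4967. The release channel thus differed by 2.41-fold on its brightest probe set and the sensor by 1.48-fold. A dimmer probe set of Ryr1, 1457347_at, had 208 and 332, which is 1.6-fold and near the sensor.

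Trdn, the triadin that ties calsequestrin to the channel, had signals of 3023 and 6289, and its 4 measured probe sets all gave log2 ratios between 0.94 and 1.41. Jph1, which holds the tubule and the reticulum together, had 824 and 1093, among the smallest ratios of the group at 1.33-fold. Casq1, the calcium store protein of fast fibres, had 3675 and 8043, and Casq2, that of slow fibres and heart, had 4461 and 8574. The calsequestrins differed from each other by only 0.19 in log2 ratio.

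The calcium pumps differed less than the brightest probe set of the release channel. The dimmer Ryr1 probe set, at a log2 ratio of 0.68, lay near Atp2a1 (0.69). Atp2a1, the pump of fast fibres, had signals of 7563 and 12217, and Atp2a2, the pump of slow fibres, heart and many other cells, had 5328 and 7038. The 5 measured probe sets of Atp2a2 gave log2 ratios from -0.34 to 0.40, 3 of them higher in MatDp(dist2), 1 of these (1427250_at) by only 4951 against 4944.6. Sln, the small sarcolipin that restrains the pump, had 8772 and 13906. Pvalb, the calcium buffer of fast fibres that some interneurons also make, had 1281 and 3197, at 2.50-fold the largest ratio among the calcium genes.

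Energy genes held the largest single difference. Mb, the oxygen store myoglobin of slow and oxidative fibres, had a signal of 224 in MatDp(dist2), just above the floor, and 2983 in PatDp(dist2). The 13.3-fold ratio was the second highest toward PatDp(dist2) among the 12483 measured genes, counting bounds. It rests on 1 probe set, since the other, 1422420_at, had 24.8 and 21.0, below the floor on both arrays. The size of the ratio depends on how a signal near the floor is treated: with an offset of 100 added to each signal it was 3.25 on the log2 scale, and with the floor at the 70th percentile it was a bound of 2.68.

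The other energy genes differed by less. Ckmt2, the creatine kinase of the mitochondria, had signals of 2450.4 and 8106, and Ckm, the creatine kinase of the cytosol and M-band, had 11617 and 14661. These kinases differed in log2 ratio by 1.39, the widest gap among the 10 pairs of related genes compared. Pygm, which breaks down muscle glycogen, had 2634 and 6142. Pgam2, the muscle phosphoglycerate mutase, had 4174.5 and 9217, and Eno3, the muscle enolase, had 11651 and 18835. Of the 6 genes all were higher in PatDp(dist2), 5 at least 1.5-fold and 4 at least 2-fold, at a median log2 ratio of 1.18.

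Myogenic factors were also higher in PatDp(dist2), 4 of 4, with 3 at least 1.5-fold, 1 at least 2-fold and a median log2 ratio of 0.63. Myf5 and Myod1 commit precursors to the muscle lineage. Myf5 gave 216 in MatDp(dist2) and 342 in PatDp(dist2), close to the floor, and Myod1 had 719 and 1091. Myog, which drives differentiation and fusion, had 1184 and 1596, the smallest ratio at 1.35-fold. Myf6, also called Mrf4, which persists in mature fibres, had 627 and 1435, the largest at 2.29-fold.

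The acetylcholine receptor was weakly measured. Chrna1, the ligand-binding alpha subunit, gave 594 in MatDp(dist2) and 948 in PatDp(dist2). Chrng, the embryonic gamma subunit, had 390 and 432 on its brightest probe set and lay below the floor on the other 2. Chrne, the adult epsilon subunit, had 45.5 and 73.1, below the floor on both arrays, so no ratio is given. The alpha subunit was thus 1.60-fold apart and the gamma subunit 1.11-fold.

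The brightest muscle genes differed by the smaller folds. None of the 10 brightest, Acta1, Actc1, Eno3, Ttn, Ckm, Sln, Tpm1, Atp2a1, Tpm2 and Mybpc1, was at least 2-fold apart, at a median log2 ratio of 0.66 and a highest of 0.99. Of the other 33 genes 18 were, at a median of 1.06. The dimmest of these, 3 genes with a mean log2 signal of 8 to 9, also had small folds. Their median was 0.56, with 0 at least 2-fold higher in PatDp(dist2). The 10 brightest reached down to 6526.4 in MatDp(dist2), so not all were near the top of the arrays. Whether the highest signals still follow the amount of RNA in proportion was not tested.

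Genes of fast and of slow fibres both lay toward PatDp(dist2). The 6 fast-fibre genes, Actn3, Myoz1, Mybpc2, Casq1, Atp2a1 and Pvalb, were all at least 1.5-fold higher there, at a median log2 ratio of 1.18. Of the 7 slow-fibre or cardiac genes, Atp2a2, Casq2, Myoz2, Csrp3, Ankrd2, Mybpc1 and Tpm3, 5 were at least 1.5-fold higher, at a median of 0.94. The medians differed by 0.24, less than the spread within either list, which ran from 0.69 to 2.09 and from -0.01 to 1.80. The -0.01 is that of the brightest probe set of Tpm3, whose 5 measured probe sets ran from -0.42 to 2.27. Mb and Ckmt2, genes of oxidative fibres, were in neither list.

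Other muscle genes, which are not among the 44, lay in the same direction with a smaller median. They were also dimmer, with a median mean log2 signal of 10.17 against 12.29 for the measured members. The median log2 ratios of 0.62 and 0.84 came closer with quantile normalization (0.65 and 0.74) and with the loess fit (0.64 and 0.77). The part of brightness in this gap was not tested. Of 97 measured genes on 6 lists 85 had the higher signal in PatDp(dist2), 54 were at least 1.5-fold and 24 at least 2-fold higher there, and the median log2 ratio was 0.62. Over all 12483 measured genes the shares were 48.0%, 10.8% and 3.47%. These lists too were chosen with earlier results of these arrays known, so nothing is read from the counts. On the Z-disc, filament and assembly list 32 of 32 were higher in PatDp(dist2), 13 at least 2-fold, at a median of 0.94. Its largest ratios on both arrays were those of the small heat shock proteins Hspb6 (signals 549.9 and 2053) and Hspb7 (1125 and 4096) and of Nrap, a protein of forming myofibrils (430.4 and 1291). Of 18 energy genes all were higher there and 8 at least 2-fold, at a median of 0.84, led by the cytochrome oxidase subunits Cox7a1 (1394 and 6509.9) and Cox8b (1825 and 6916), which brown fat also makes, and by Gpd1 (1862 and 5525).

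In excitation-contraction coupling, 13 of 15 genes were higher in PatDp(dist2) and 1 at least 2-fold, at a median of 0.53. Stac3, which couples the sensor to the release channel, had signals of 374 and 937.5, Asph, whose locus also encodes junctin, had 984 and 1959.9, and Hrc, a calcium-binding protein of the reticulum, had 2423 and 4311. Of 10 genes of the dystrophin complex and basal lamina all were higher in PatDp(dist2), 2 of them at least 2-fold, at a median of 0.61, led by Sspn (1544 and 3274), Sgca (579 and 1171) and Utrn (1097 and 1917).

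Synapse genes and early regulators had medians near 0. Of 7 measured neuromuscular junction genes 3 were higher in PatDp(dist2) and 4 in MatDp(dist2), at a median log2 ratio of -0.13 that turned to 0.06 with quantile normalization and to 0.20 with the floor at the 70th percentile. The subunit gene Chrnb1, with 678.5 and 1034, differed the most. Lrp4, the agrin receptor, gave 323 and 262, and Dok7, an activator of the kinase MuSK, gave 520.5 and 635. Agrn, Ache and Lrp4 on that list are also made by neurons and other cells. Of 15 other myogenic regulators 9 were higher in PatDp(dist2), 3 at least 1.5-fold and 0 at least 2-fold, at a median of 0.09. In MatDp(dist2) 1 was at least 1.5-fold higher, and the log2 ratios of the list ran from -0.87 to 0.80. Pax7, the marker of satellite cells, had signals of 239.8 and 252, Pax3 had 325 and 308, and Mymk, the fusion protein myomaker, had 665 and 627. Six4 (229 and 400), Lbx1 (192 and 297) and Tbx1 (586 and 890) were higher in PatDp(dist2), and Ncam1, also a neuronal adhesion protein, was lower there (5012 and 2745).

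The contractile chains were also higher in PatDp(dist2). Of 6 measured myosin heavy chain genes 4 were at least 2-fold higher in PatDp(dist2), at a median log2 ratio of 1.20, or 0.71 with the floor at the 30th percentile. Of 12 troponin and myosin light chain genes 2 were, at a median of 0.45. The neonatal and embryonic myosins Myh8 (15467 and 18832) and Myh3 (9164.5 and 11874) were within 1.30-fold, while the adult fast myosins Myh2 (422 and 2959) and Myh1 (1912 and 8138) and the slow Myh7 (1103.5 and 2808) differed the most. Among the light chains and troponins, the slow or cardiac Myl3 (293 and 1146), Myl2 (593 and 1755) and Tnnt1 (2458 and 4395) differed the most.

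**Figure D4:**
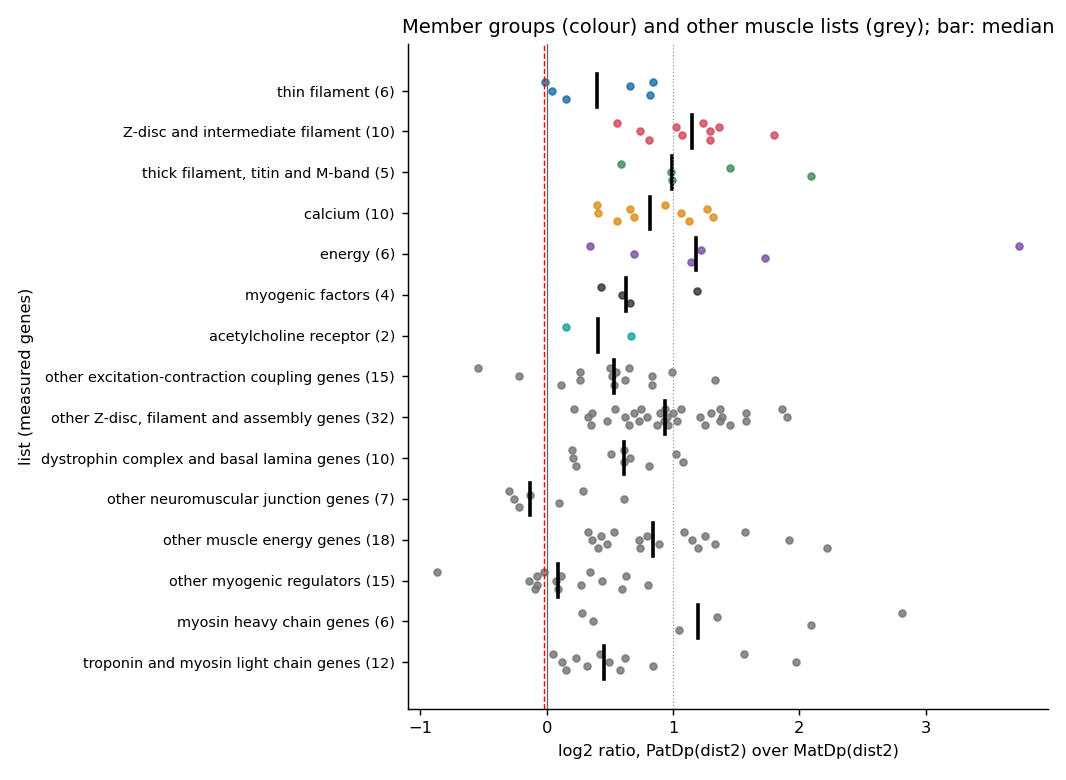
Log2 ratio of PatDp(dist2) over MatDp(dist2) for each measured gene (points) and its list median (black bar), for the 7 member groups (coloured) and 8 other muscle lists (grey); the dashed red line is the median of all measured genes, -0.02, and the dotted line a 2-fold difference. Z-disc, energy and thick filament genes lie furthest right among the member groups, and the synapse and regulator lists lie around 0.

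Most of the 44 genes lie outside the chromosomes of the translocation. By the RefSeq gene order 4 of the 44 genes, Neb, Chrna1, Ttn and Actc1, are on Chr 2, and 0 of them lie distal of the imprinted gene H13. On Chr 9 are 2, Sln and Tpm1. The remaining 38 are on other chromosomes. The labels do not place the breakpoints, so which of the 6 lie in a duplicated part cannot be told here.

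**Figure D5:**
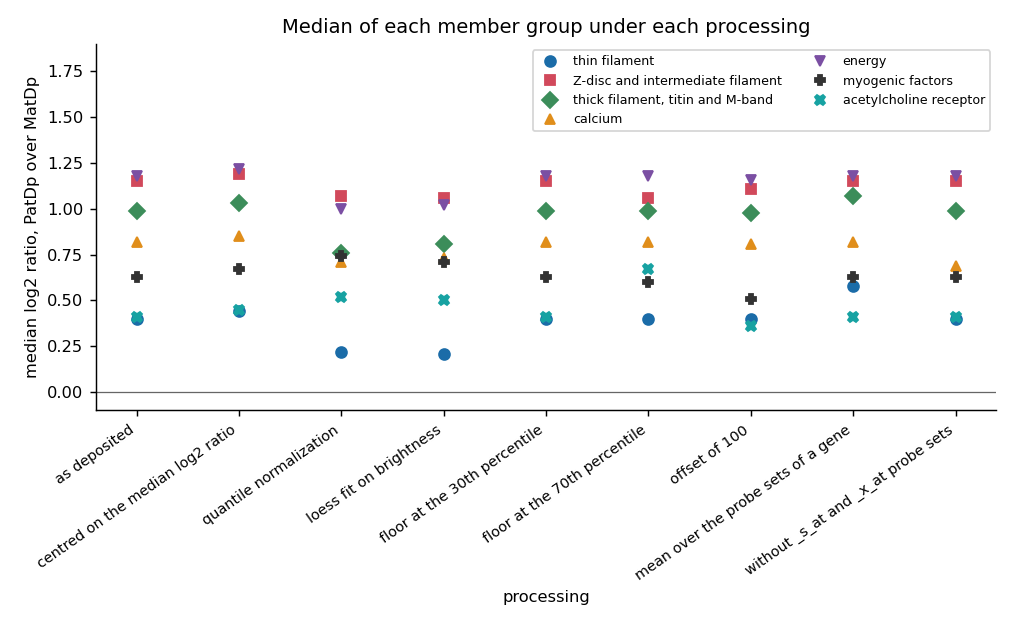
Median log2 ratio of PatDp(dist2) over MatDp(dist2) of each of the 7 member groups with the signals as deposited and under each of 8 other ways of processing them. All medians plotted lie above 0. The lowest 2 points are those of the thin filament, at 0.22 with quantile normalization and 0.21 with the loess fit.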

How the data were processed

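The values are intensity signals on a linear scale, 1 per probe set and array, deposited by the authors. They were made with MAS5 and GCOS, per the submitters' processing notes; their versions were not found in the labels. With 2% of probe sets trimmed at either end, the mean of each array was 500.002, so the signals were scaled before deposit. Symbols came from the platform annotation: 34945 probe sets had 1 symbol, 932 had several and 9160 were not listed, and 64 controls were left out. All 44 symbols matched the RefSeq gene table, which was used for chromosomes and gene order.

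Log2 ratios, with no other transformation, were computed with Python 3.11.15, pandas 2.3.3 and statsmodels 0.14.6 (loess with a span of 0.3). A gene's brightest probe set by mean log2 signal represented it. A signal below the floor was set to it, which gives a bound, and no ratio was given with both below. The scripts were tested on simulated arrays. The number of arrays limits the precision. The members, gene lists and 1.5-fold and 2-fold thresholds were chosen with earlier results of these data known. All members are given. Of other lists up to 3 genes with the largest ratio measured on both arrays are named; further ones named in the text were chosen after their values were seen. The 8 alternatives were median centring, quantile normalization, a loess fit, floors at the 30th and 70th percentile (75.1 and 465), an offset of 100, the mean over probe sets, and leaving out _s_at and _x_at probe sets.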

Additional observations from a re-analysis of the deposited data

How the results depend on the processing

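With no replicates, a median was taken to have moved when it changed by more than 1.5 times or turned its sign, and a count when it changed by more than 1.5 times. Of 144 values for 18 results under 8 alternatives, 138 stayed within that and 0 reversed. The median of the thin filament genes was 0.22 with quantile normalization and 0.21 with the loess fit, against 0.40. That of the acetylcholine receptor was 0.67 with the floor at the 70th percentile, where Chrna1 alone was left, against 0.41. The fast minus slow difference was 0.36 with the mean over probe sets, against 0.24. Of other muscle genes, 1 was higher in MatDp(dist2) by 2-fold or more with quantile normalization and with the loess fit, against 0. Of the lists of other muscle genes, the median of the junction genes changed sign, as given above. The cause of the other moves was not tested. Of 341 values of single members 5 changed sign, in Acta1, Actc1 and Tpm3. Detection calls were not used, and signals near the floor limit Mb, Myf5, Ankrd2, Cacna1s and the receptor genes. No paired analysis was possible because each group has 1 array.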

Other observations

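Tendon markers, on a list not described above, were brighter in PatDp(dist2) in 6 of 6 measured genes, 4 of which differed by 1.5-fold or more, and their median log2 ratio was 0.71. Tnmd, a tendon membrane protein, gave 1698 in MatDp(dist2) and 4001.5 in PatDp(dist2), while Thbs4, a thrombospondin of tendon and muscle attachments, had 786 and 1897. Tnc, the matrix protein tenascin, had 2355 and 2386, and the tendon regulator Mkx had 221.5 and 227.5. These values went with those of the muscle genes, and their part in them was not tested.

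A family of ankyrin repeat proteins that bind titin and respond to stretch, chosen after its values were seen, lay on the same side. Besides Ankrd2, Ankrd1 had signals of 308 and 560.4, and Ankrd23 had 138, below the floor, and 557, a difference of at least 2.98-fold toward PatDp(dist2). Ubiquitin ligases of muscle breakdown on the assembly list, also chosen after the values were seen, were Trim63 (513 and 1045) and Fbxo32 (397 and 642), higher in PatDp(dist2) by 2.04-fold and 1.62-fold.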
